A study of Mus musculus with 2 samples.

Results

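MyoD and its relatives act through partners and against inhibitors, and 10 genes of that circuit were examined in C2C12 myoblasts: the E proteins Tcf3, Tcf4 and Tcf12, and the inhibitors Id2, Id4, Twist1, Twist2, Msc, Mdfi and Bhlhe40. All rows of the deposited gene activity table with one of these gene symbols were taken, which gave 14 RefSeq entries out of 24165, and 10 gene symbols out of 20128. The rule takes them by name and uses no measured value, although the list was drawn up with earlier results of these data known. C2C12 is an established mouse myoblast line, whose cells can fuse into multinucleated myotubes. The cells were untreated and were taken before full confluency. Nascent RNA was measured in 2 replicate libraries by global run-on sequencing (GRO-seq). In this method, engaged RNA polymerases extend their transcripts with a bromouridine label that is then captured. The authors pooled both libraries into 1 value per entry, so no value below has a replicate error, no difference between genes could be tested against the spread between libraries, and all comparisons are descriptive. Gene activity is given in RPKmM, that is, sense-strand reads per kilobase of mappable sequence and per 1000000 reads, counted from 1 kb downstream of the transcription start site (TSS) to the transcript end. It is a density of engaged polymerase per length, and so can be compared between genes, but it is not an amount of mRNA or protein. The table does not hold the depth of the libraries, and the depth the study states was not used here.

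As background, basic helix-loop-helix (bHLH) factors bind DNA as dimers at the E-box, CANNTG. The myogenic factors MyoD, Myf5, myogenin and Mrf4 bind it together with the broadly expressed E proteins. Id proteins have the helix-loop-helix but lack the basic region that contacts DNA, so an E protein paired with an Id protein cannot bind. Twist proteins and musculin, the product of Msc, are bHLH factors that also pair with E proteins and oppose muscle gene activation. Bhlhe40 is an E-box repressor known from hypoxia and circadian regulation. Mdfi encodes I-mfa, which is not a bHLH protein but binds myogenic factors and hinders their entry into the nucleus and their DNA binding.

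Myoblast markers were transcribed in these cells, and markers of other cell types were inactive or had low activity. All 7 myoblast markers examined were active, from 0.55 RPKmM for Pax7 to 72.5 for Des, which encodes the intermediate filament desmin. Of 15 listed endothelial, haematopoietic, epithelial and neural markers, 9 were inactive and the remaining 6 had at most 0.11. The markers were thus those of the labelled cell type.

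Of the 10 members, 9 were active by the authors' call and Id4 was inactive, beside 68.7% of all gene symbols in the table that had at least 1 active entry. When each gene was represented by its highest entry, the order from high to low was Tcf12, Tcf3, Tcf4, Bhlhe40, Twist2, Msc, Id2, Mdfi, Twist1 and Id4. Each of the 3 E proteins had a higher activity than each of the 7 inhibitors. The median was 2.5 RPKmM for the E proteins and 0.54 for the inhibitors, with Id4 counted as 0, a ratio of 4.63. This ratio fell to 2.39 with the lowest entry of each gene. It reached 19.3 as a ratio of geometric means with a pseudocount of 0.001. The ratio holds for these 7 inhibitors and not for inhibitors as a class. Id1 and Id3 are not listed, and the 6 listed Hes, Hey and Bhlhe41 repressors outside the members ranged from 0.01 to 5.34. An activity above 0.87, the median of all active entries, was found for 5 members, against 34.2% of all gene symbols. These 5 were the E proteins, Bhlhe40 and Twist2. Neighbours in the order differed little in the upper part, by 1.05-fold between Tcf12 and Tcf3 and by 1.02-fold between Bhlhe40 and Twist2. Without a value per library, it is not known which neighbouring ranks would hold in a repeat. Among the active members the widest step lay between Id2 and Mdfi, which differed 18-fold as printed (15.3-fold to 21.8-fold given the rounding).

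**Figure D1:**
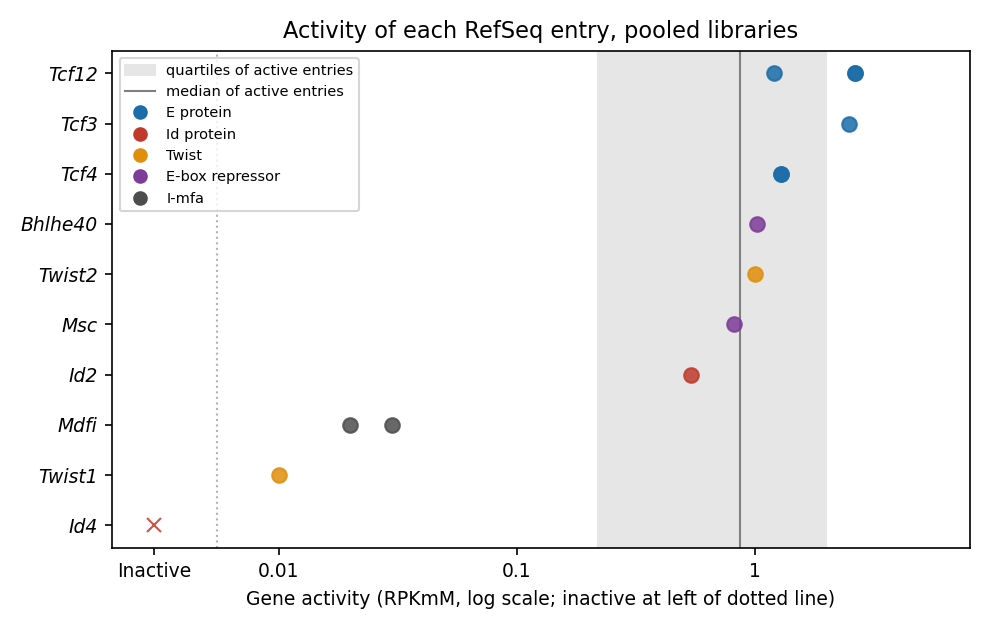
Gene activity of the 14 RefSeq entries of the members, in RPKmM on a log scale, as single values of the pooled libraries with no error bars. Circles are active entries and the cross at the left of the dotted line is the inactive entry of Id4; entries of equal value overlap, as for Tcf4 and for the upper pair of Tcf12. The grey band spans the quartiles of all active entries, 0.22 to 1.99, around the median of 0.87; Tcf12 and Tcf3 reach beyond it, and Mdfi, Twist1 and Id4 fall short of it.

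The E proteins were the most active members. Tcf12, which encodes HEB, had 3 entries. NM_001253862 and NM_001253865 both had 2.63 RPKmM, above 82% of all active entries, and NM_001253863 had 1.21, above 59.6%. In assembly mm9 the gene spans 267568 bases at chr9:71692059-71959626, transcribed from the minus strand. The entries of Tcf12 therefore differed 2.17-fold within the gene, a ratio reached by 8.84% of the 2274 gene symbols with several entries above 0. The annotation of mm9 used here places the outermost start of a coding Tcf12 transcript at 71959626 and the innermost at 71743890, which leaves the shortest coding transcript a span of 50114 bases. The deposited table gives no coordinates, so it cannot be said from it which stretch each of these entries covers. Entries of the same gene overlap and share reads, and are not replicates.

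Tcf3 encodes E12 and E47, E proteins that arise by alternative splicing and pair with MyoD. Its single entry, NM_001164147, had 2.5 RPKmM, above 80.8% of active entries. Tcf3 is at chr10:79872259-79896392 (minus strand). Tcf4 encodes the third E protein and is a different gene from the Wnt effector once given the same name. Its entries NM_013685 and NM_001083967 were both at 1.29 RPKmM, above 61.6% of active entries. Tcf4 was thus 2.04-fold below the highest entries of Tcf12 and 1.94-fold below Tcf3, but above the Tcf12 entry at 1.21. Tcf4 is the longest member, with 343822 bases at chr18:69503800-69847621 (plus strand). Compared with active entries of similar annotated gene length, within 2-fold of its own, Tcf12 was above 91.3%, Tcf3 above 79.1% and Tcf4 above 73%. The median of those entries was 0.62 for Tcf12, 0.97 for Tcf3 and 0.58 for Tcf4. All 3 E proteins were thus above the median of their own length class.

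Of the myogenic factors, which need the E proteins as partners, Myod1 and Myog were near Tcf3 and the highest entries of Tcf12. Myf5 was higher. Myod1 and Myog both had 2.39 RPKmM and Myf5 had 5.03, the last being 2.1-fold higher than Myod1. The activity of Tcf12 by its highest entry was 1.1-fold that of Myod1, and that of Tcf4 was lower, with Myod1 at 1.85-fold its level. The Tcf12 entry NM_001253863, at 1.21, was below both Myod1 and Tcf4. No member classed as an inhibitor reached the activity of Myod1, which was 2.34-fold that of Bhlhe40, 2.39-fold that of Twist2, 2.91-fold that of Msc and 4.43-fold that of Id2.

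The Id genes differed between their listed members. Id2 (NM_010496), at chr12:25778666-25780957 (minus strand), had 0.54 RPKmM, above 38.1% of active entries. It was 4.87-fold below Tcf12. Id4 (NM_031166), at chr13:48356796-48359405 (plus strand), was inactive, that is, its read density did not pass the authors' comparison with gene deserts, and no number is given for it. Inactive is not rare for genes of this size, as 58.2% of the 2456 entries within 2-fold of its length were active. Id1 and Id3 are not listed. Id1 is annotated with 1160 bases, below the minimum of 2 kb that the authors set for a gene, while Id3 is annotated with 2259 bases in the annotation used here. These 2 genes, prominent inhibitors of MyoD in proliferating myoblasts, were therefore not analysed here.

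The Twist genes were far apart, as Twist2 was second and Twist1 the lowest active gene among the inhibitors. Twist2 (NM_007855), at chr1:93698038-93744605 (plus strand), had 1 RPKmM, above 54% of active entries and 48.6% of active entries of similar length. Twist1 (NM_011658), at chr12:34642536-34644682 (plus strand), had 0.01, above 0.908% of active entries. The printed values differ 100-fold. Because Twist1 is at the rounding step of the table, its unrounded value lies between 0.005 and 0.015, and the difference is at least 66.3-fold on that account. This bound covers the rounding only and not the counting error, which was not computed and is relatively largest for Twist1 among the active members. Among 1028 active entries of similar length, 0.195% were lower than Twist1, and their median was 0.825. Twist1 was called active all the same, although it was below the upper entry of Mdfi, the next in the order, by 1.67-fold to 7-fold given the rounding of both.

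The starts of these paralogs are shown since each pair holds a clearly transcribed gene and one that was inactive or close to it. For each gene the 200 bases before the annotated start in mm9 are printed in the direction of transcription, with CpG dinucleotides in capitals, from chr12:25780958-25781157 (minus strand) for Id2, chr13:48356596-48356795 (plus) for Id4, chr12:34642336-34642535 (plus) for Twist1 and chr1:93697838-93698037 (plus) for Twist2.
Id2: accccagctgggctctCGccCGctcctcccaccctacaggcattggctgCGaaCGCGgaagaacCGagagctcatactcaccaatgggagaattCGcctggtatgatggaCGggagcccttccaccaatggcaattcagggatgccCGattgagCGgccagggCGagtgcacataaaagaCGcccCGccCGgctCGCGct
Id4: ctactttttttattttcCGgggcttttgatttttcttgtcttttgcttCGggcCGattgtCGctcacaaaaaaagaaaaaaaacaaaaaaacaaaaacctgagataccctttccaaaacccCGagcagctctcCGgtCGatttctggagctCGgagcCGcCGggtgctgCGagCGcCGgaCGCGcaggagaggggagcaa
Twist1: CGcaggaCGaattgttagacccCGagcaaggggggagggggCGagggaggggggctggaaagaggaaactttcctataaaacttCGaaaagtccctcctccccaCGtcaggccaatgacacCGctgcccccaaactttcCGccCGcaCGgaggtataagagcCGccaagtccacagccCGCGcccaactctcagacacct
Twist2: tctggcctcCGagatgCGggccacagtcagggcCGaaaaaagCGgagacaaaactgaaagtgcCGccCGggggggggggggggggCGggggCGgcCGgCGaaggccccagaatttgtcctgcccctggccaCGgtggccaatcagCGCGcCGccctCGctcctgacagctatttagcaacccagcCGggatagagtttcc

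These stretches held 16 CpG for Id2, 15 for Id4, 13 for Twist1 and 16 for Twist2. Whether CpG or motif number goes with activity was not tested. The share of G and C was 62.5% for Id2, 49.5% for Id4, 60.5% for Twist1 and 67.5% for Twist2. In the window from 250 bases before to 50 bases after the start, Twist1 had 27 CpG, more than 78.5% of the 17418 promoters examined, and Id4 had 24, more than 72%. Their transcribed paralogs were close to them, with 25 for Twist2, more than 74.2%, and 21 for Id2, more than 65%. Over all members the number ranged from 6 for Tcf4 and 8 for Mdfi to 41 for Tcf12. The motif CANNTG, which reads the same on both strands, occurred once in the printed Id2 stretch, as CAGCTG starting 196 bases before the TSS. It was not found in the printed stretches of Id4, Twist1 and Twist2. Over the wider window of 300 bases, 5 of the 10 members had at least 1 CANNTG, namely Tcf3, Tcf12, Id2, Bhlhe40 and Mdfi, beside 67.8% of all promoters. CAGCTG was present in Tcf12 and Id2, beside 16.1% of promoters. Mdfi had the most CANNTG motifs with 4, and Tcf4, Twist2, Msc, Twist1 and Id4 had none. Each gene was examined at its outermost annotated start only. The starts of coding transcripts lie up to 249280 bases apart in Tcf4 and 215736 in Tcf12. Which of these starts an entry uses is not known. A CAGGTG or CACCTG was found in Mdfi alone among the members, beside 20% of promoters. CACGTG, the form preferred by Bhlhe40, was present in no member, beside 8.59% of promoters, and CATATG in none, beside 2.42%. A match to these letters is a description of the sequence and does not show that a factor binds there.

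Of the E-box repressors, Bhlhe40 (NM_011498) had 1.02 RPKmM, above 54.6% of active entries and 53.9% of those of similar length. It is at chr6:108610623-108616919 (plus strand). Its paralog Bhlhe41 had 4.45, which was 4.36-fold higher. Msc (NM_010827), at chr1:14743427-14746047 (minus strand), had 0.82, above 48.3% of active entries and 49.8% of those of similar length. Both genes were thus close to the middle of the active genes, and Msc was 1.52-fold above Id2. Mdfi, at chr17:47952277-47971640 (minus strand), had 0.03 RPKmM for NM_001109973 and 0.02 for NM_001276390, above 10.5% and 6.99% of active entries. These values differ by 1 rounding step. Mdfic, which encodes a protein with a related domain, had 2.63 and was 87.7-fold higher than the upper entry of Mdfi as printed (75-fold to 105-fold given the rounding). In both of these pairs the member was therefore the lower of the paralogs.

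The amount of sequence behind a value differed widely between members. Multiplying activity by the annotated length of the whole gene less 1 kb gives the reads in the gene body per 1000000 reads, if the entry covers the whole gene and all bases are mappable. This came to 701 for Tcf12, 442 for Tcf4, 57.8 for Tcf3 and 45.6 for Twist2. It was 5.4 for Bhlhe40, 1.33 for Msc, 0.698 for Id2 and 0.551 for Mdfi, and for Twist1 it was 0.0115, or between 0.00574 and 0.0172 given the rounding. The stretch that an entry covers is not in the table, and with the shortest coding transcript of the gene, taken as at least 2 kb, the values were 129 for Tcf12, 115 for Tcf4, 2.5 for Tcf3, 1.02 for Bhlhe40 and 0.229 for Mdfi. Id2, Id4, Twist1, Twist2 and Msc each had 1 coding transcript, of the length of the gene. Tcf12 and Tcf4 thus had the most reads per 1000000 and Twist1 the fewest among the active members with either length, whereas Tcf3 was above Twist2, and Bhlhe40 above Msc, with the whole gene but not with the shortest transcript. The counted stretches of the short inhibitor genes were 1147 bases for Twist1, 1292 for Id2, 1610 for Id4 and 1621 for Msc. Only 1.1% of entries with an annotated length were shorter than Twist1 and 1.55% were shorter than Id2. With entries of similar length as the background, 4 rather than 5 members were above the median, as Twist2 at 1 RPKmM was just below its own median of 1.05.

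**Figure D2:**
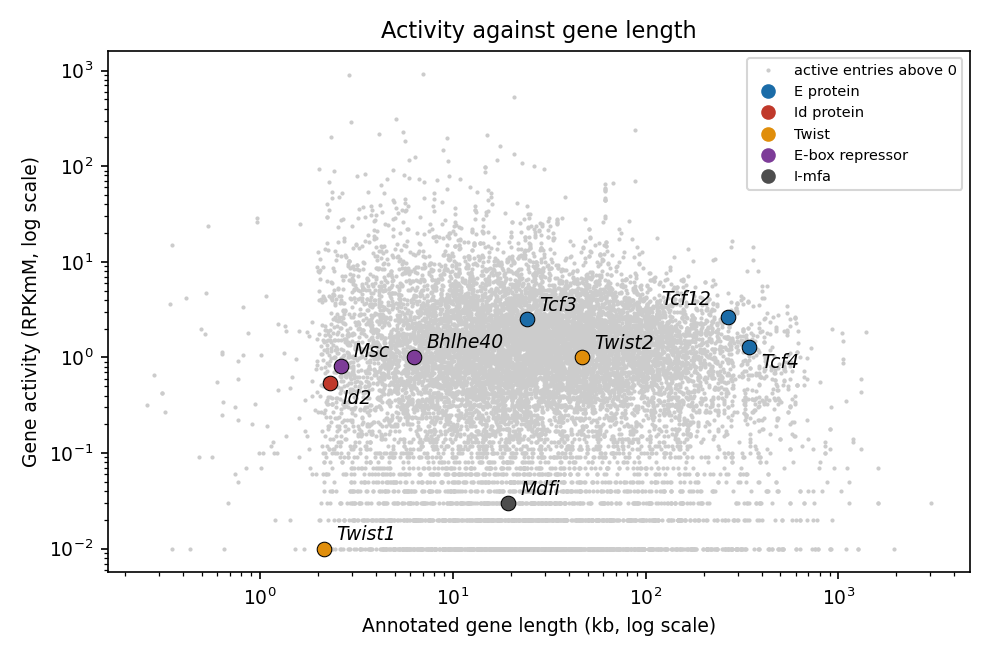
Gene activity in RPKmM against annotated gene length in kb, both on log scales, with each member at its highest entry and grey points for all other active entries above 0 that could be matched to a single annotated gene. Id4 has no number and is not drawn. The E proteins Tcf12 and Tcf4 lie among the longest genes, Id2, Msc and Twist1 among the shortest, and Twist1 lies on the lowest value drawn, 0.01; the 154 active entries listed at 0 are not drawn.

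Other annotated genes overlapped 5 members. On the opposite strand these were Rpl15-ps2 in Tcf12, A330033J07Rik at Id4, Gm9947 at Msc and 0610040F04Rik at Bhlhe40. The activity is counted on the sense strand, so their reads are not part of it. A330033J07Rik, which shares 1197 bases with Id4, was inactive like Id4 itself, and 0610040F04Rik, which shares 306 bases with Bhlhe40, had 0.01. On the same strand a 5S rRNA copy of 109 bases lies in Tcf4, and reads at rRNA repeats had been removed by the authors.

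The genes next to the members on the chromosome were active about as often as genes in general. Of the 20 nearest listed genes, 1 on each side of each member, 14 (70%) were active and 6 inactive, beside 68.7% of all gene symbols active, and 6 members had an inactive neighbour. Tcf3, Tcf4 and Msc were above both of their neighbours, and Twist1 was below both. Tcf4, at 1.29 RPKmM, lay between 4930546C10Rik, inactive, and Ccdc68, at 0.01, with gaps of 394 and 237 kb. Conversely, Twist1, at 0.01, lay 87.8 kb from Hdac9, at 0.5, and 518 kb from Twistnb, at 0.84. Each Twist gene is next to a gene of a class II histone deacetylase, and for Twist2 this was Hdac4, 80.8 kb away, with 1.09 against 1 for Twist2 itself. Tcf12 lay between Cgnl1 at 0.17 and Zfp280d at 3.68. Id2 lay between Kidins220, at 2.19 and 32.5 kb away, and Rnf144a, which was inactive and 1211 kb away. Msc, at 0.82, was similar to Eya1, at 0.75, on one side, while Trpa1 on the other side was inactive. Foxp4, at 2.16, was 32.4 kb from Mdfi, at 0.03. The left and right neighbours of Bhlhe40 were Itpr1 at 0.37 and Arl8b at 3.35.

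**Figure D3:**
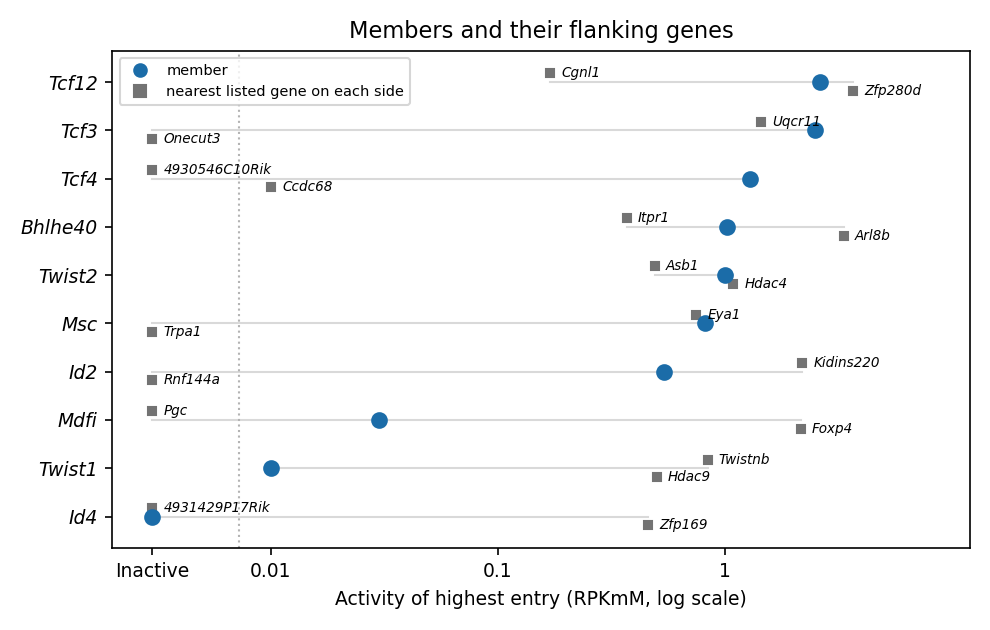
Activity of each member (blue circles) and of the nearest listed gene on each side (grey squares, named), in RPKmM on a log scale and by the highest entry of each gene, with inactive genes at the left of the dotted line. A grey line joins the lowest and the highest of the 3 values. Tcf4 stands to the right of both neighbours, and Twist1 to the left of both.

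The members were set beside 50 other genes of helix-loop-helix factors and 23 genes of MyoD cofactors and E-box zinc finger proteins. Of the other helix-loop-helix genes, 38 were listed, and 14 of them were active and 24 inactive, beside 68.7% of all gene symbols active. The 24 inactive genes were all of the neural, mesodermal and haematopoietic groups, which hold tissue-specific partners of E proteins. Of 16 listed neural and related factors 1 was active, Atoh8 with 0.42 RPKmM, and of 9 listed mesodermal and related factors 1 was active, Scx with 3.96, which encodes scleraxis of the tendon lineage. Among the 3 haematopoietic factors, Lyl1 and Tal2 were active at 0.03 and 0.02 and Tal1 was inactive. In contrast, each of the 6 listed Hes, Hey and Bhlhe41 repressors was active, with Hes1, a Notch target, the highest at 5.34, and Hey2 the lowest at 0.01. Hey1 had 1.53, Heyl 1.2 and Hes7 0.38. The highest of these 38 genes were Hes1, Myf5, Bhlhe41, Scx and then Myod1 and Myog at the same value. Hes1, Bhlhe41 and Scx each had a higher activity than every member. The 12 genes that were not listed include Id1, Id3, Myf6 and Hes6, and 10 of the 12 are annotated with under 2 kb.

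All 23 cofactor genes were active, beside 68.7% of all gene symbols, with a median of 1.97 RPKmM over their highest entries. Of them, 18 were above 0.87, beside 34.2% of all gene symbols. The highest was Prmt5, an arginine methyltransferase gene, at 8.69. It was followed by Ldb1, a LIM domain binding factor, at 7.18, and by Smarcd3, a subunit of the SWI/SNF remodelling complex that associates with MyoD, at 6.7. The zinc finger repressors Zeb2 and Zeb1 came next with 3.55 and 3.19. The acetyltransferase genes Ep300, Crebbp and Kat2b had 2.78, 2.27 and 1.13. The deacetylase gene Hdac1 had 0.77, Hdac4 1.09 and Hdac5 1.04, a range that includes Msc, Twist2 and Bhlhe40. Snai2, a zinc finger repressor that binds E-boxes, had 2.22 and Snai1 0.67. The lowest was Lmo2 at 0.02, a bridging factor of haematopoietic bHLH complexes, followed by Runx1t1 at 0.12 and Cbfa2t3 at 0.13, both of the corepressor family that binds E proteins. Their paralog Cbfa2t2 had 2.37. The E proteins and, among the inhibitors, Bhlhe40, Twist2, Msc, Id2 and Mdfi lay within the range of these cofactors, and Twist1 and Id4 lay below it.

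**Figure D4:**
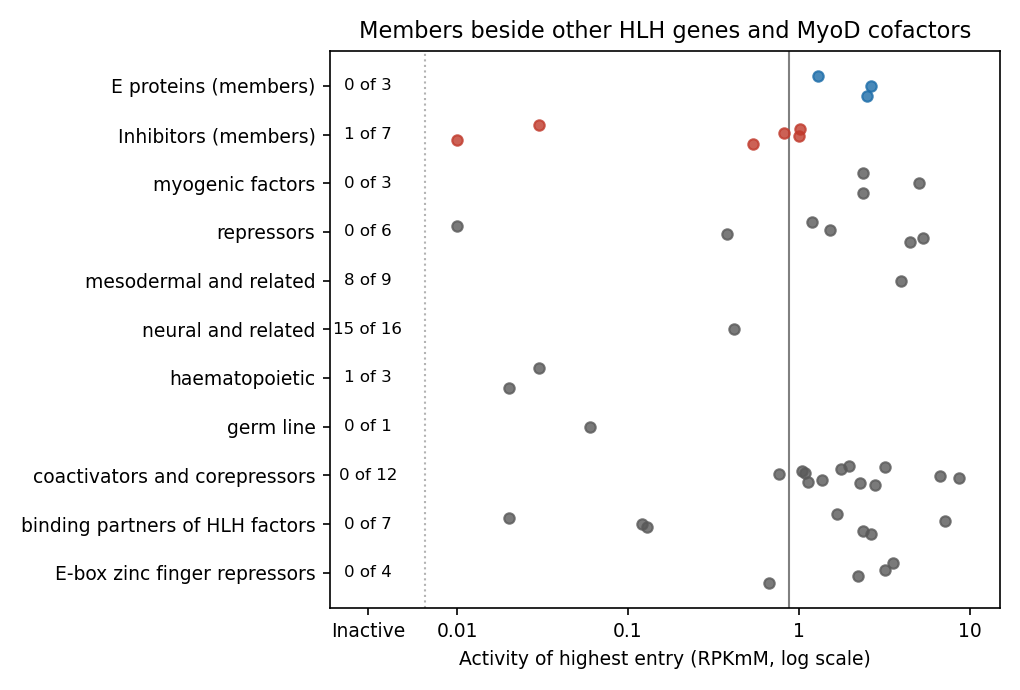
Activity by the highest entry of each gene, in RPKmM on a log scale, for the E proteins and inhibitors and for the other helix-loop-helix and cofactor genes by group. Each circle is an active gene, the text at the left of the dotted line gives how many of the listed genes were inactive, and the vertical line marks the median of active entries at 0.87. All E proteins lie to the right of that line, 15 of 16 neural and related genes were inactive, and no cofactor gene was.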

How the data were processed

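GRO-seq libraries of untreated C2C12 myoblasts were base-called with CASAVA 1.8 per the labels, and the authors aligned the reads to mm9 with Bowtie2, whose version is not given in the sources used here. They kept uniquely mapped reads, realigned shortened reads and filtered out rRNA and tRNA repeats. The authors then merged the 2 libraries and deposited a single activity per RefSeq entry, in RPKM over mappable bases and with 2 decimals. Entries under 2 kb had been left out, and 7208 entries hold the word Inactive in place of a number, so that the range of the column was not checked automatically. The values were read as deposited, and 1 such pooled column was used. Pooling hides the spread between libraries, short counted stretches carry few reads, and rounding blurs values near 0.01.

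Gene symbols were matched to GENCODE vM1 on NCBIM37 (mm9), where 17421 symbols have a single gene record, which covers 87.4% of entries and all 10 members. Lengths and starts are of that annotation, not of RefSeq. A gene with several entries was represented by the highest, and a percentage of active entries counts those strictly lower. No test was possible. Motif counting and ranking were tested on simulated data. The members and lists were chosen with earlier results of these data known. All members and their flanking genes are named, with the myogenic factors, the other Id genes and the 5 highest of each list; other named genes were chosen after their values were seen. Protein sequences were not used here. Alternatives were another entry per gene, thresholds of 0.01 and 0.1, other backgrounds, geometric means with pseudocounts of 0.01 and 0.001, and a promoter window of 1000 bases on each side. Python 3.11.15, numpy 2.4.6, pandas 2.3.3 and matplotlib 3.10.9 were used.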

Additional observations from a re-analysis of the deposited data

How the results depend on the processing

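Of 29 alternative values, 23 stayed within 1.5 times the main value and 6 moved further. The number of active members was 9 under each choice of entry and 7 at an activity of at least 0.1. The choice of entry could not change the 9, since Id4 has a single entry and all other member entries were active. The number above the median of the background lay between 4 and 7. The median activity of members, 0.91 RPKmM, became 0.346 and 0.257 as geometric means with pseudocounts of 0.01 and 0.001, which weigh the 3 lowest members more. The ratio of E proteins to inhibitors, 4.63, became 12.9 and 19.3 in the same way and 2.39 with the lowest entry of each gene, where Tcf12 drops to 1.21 and Tcf4 becomes the median of the E proteins. It stayed above 1 throughout, which was fixed in advance, since every E protein entry was above every inhibitor entry. The CANNTG motifs summed over the 10 member promoters numbered 9, and summed over the longer windows of 1000 bases on each side 74, that is, 1 to 12 per member with a median of 7.5, below the median of 9 per window over all genes. No paired analysis was possible because both libraries were pooled in a single column, and for the same reason no replicate could be left out. The depth the study states was not used here, so no counting error was computed; by the reads in the gene body, this error is relatively largest for Twist1 among the active members.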
